A study of Rattus norvegicus with 26 samples.

Results

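miR-122 is the main microRNA (miRNA) of hepatocytes, and its level was followed in rat liver after partial hepatectomy (PH), the removal of a part of the liver. It was taken from the arrays by its name, rno-miR-122 without the star that marks the other arm of its hairpin, and is 1 of 677 rat miRNAs with probes on the array. Normal livers of 3 rats were compared with livers left to regrow after removal of the smaller (1/3PH) or the larger part (2/3PH) of the liver mass, taken 6, 12, 24 or 36 hours (H) after surgery, with 3 rats in each of the 8 operated groups other than 1/3PH 6H, which had 2 arrays. All 26 samples were from male Sprague-Dawley rats whose age was not given and each array held the RNA of 1 rat. For 1/3PH the left lateral lobe was taken out, and the tissue measured in all groups was the right lobes. Some source names give a time 1 or 2 hours later than the title of the same sample, and groups follow the titles. The protocol field of the normal livers reads sham, whereas the study's methods describe rats without PH, so the control cannot be assigned to either from the sources used here. The samples were whole tissue, so that fewer hepatocytes and less miR-122 per hepatocyte cannot be told apart.

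miRNAs are short RNAs that are cut from a hairpin precursor, are loaded into an Argonaute protein and pair through their seed, the bases next to their 5′ end, with target mRNAs, which are then repressed. miR-122 is made almost only in hepatocytes, where its gene is driven by liver-enriched transcription factors. It is known for its part in cholesterol and fatty acid metabolism, for keeping hepatocytes differentiated, and as a host factor of hepatitis C virus. Liver regrowth after PH comes mainly from the division of the remaining hepatocytes, and 2/3PH starts a much stronger round of division than 1/3PH.

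The mature sequences of both arms are shown because the 2 sets of probes read them separately, with the seed (bases 2 to 8) in capitals. They were taken from RefSeq on the GRCr8 assembly, where both names of the array had a match.
rno-miR-122 (rno-miR-122-5p): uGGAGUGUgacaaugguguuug
rno-miR-122* (rno-miR-122-3p): aACGCCAUcaucacacuaa
The main arm lies at chr18:61028831-61028852 and the star arm at chr18:61028867-61028885, both on the plus strand, within a hairpin of 85 bases. Of 690 other mature rat sequences in the same tables, 0 had the same bases 2 to 8 and 0 the same bases 2 to 7, so no seed family was grouped with miR-122. The longest run of bases that the main arm shared with any of them was 9, with rno-miR-3551-5p. The hairpin lies inside LOC134482951, annotated as a transcribed pseudogene at chr18:61024333-61041846. On the opposite strand it overlaps Mir3591, an antisense miRNA gene whose mature product covers chr18:61028831-61028850. The array's probes for rno-miR-3591 were detected on 0 of 26 arrays, and their summed signal reached at most 0.439, so that signal from the antisense strand of the miR-122 locus was not detectable on these arrays.

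miR-122 was the brightest miRNA on every array. It was read by 2 probes with 10 spots each, and its signal, the sum of the 2 probe means, ranged from 10306 to 52432 with a median of 39918 over the 26 arrays. No other miRNA reached a higher summed signal on any array, and miR-21, an miRNA tied to cell growth, came next on all of them. The lowest signal of miR-122 came from rat m5m of 1/3PH 12H, which also had the lowest summed signal of all miRNAs (17795, against 58044 to 94981 on the other arrays) and the fewest detected miRNAs (91, against 118 to 155). Without m5m the signal of miR-122 ranged from 31331 to 52432, a 1.67-fold span, whereas with it the span was 5.09-fold.

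No spot of miR-122 was at the limit of the scanner. Of its 520 spots on all arrays, 0 were marked saturated and 16 were marked as outliers, and no array lost all spots of a probe. The brightest raw spot per array ranged from 8297.5 to 41833.5 units, which was 1.07% to 5.37% of the saturation value of that array, with a median of 4.11%. The deposited log2 table, in contrast, held the value 14.668 for miR-122 in 25 of 26 columns and 13.393 for m5m. In each of the 26 columns miR-122 was the highest of all miRNAs, and with the control rows counted it ranked 2 in the 25 columns and 4 in m5m. That table therefore held no difference in miR-122 among the 25 arrays, although their spots differed, and the values below were computed from the spots.

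Each array was scaled by dividing by its 75th percentile over the 109 probes that were well above background on all arrays, and levels are given as log2 of that scaled signal. On this scale the 26 arrays lay between 7.11 and 7.60, a 1.40-fold span, with an SD of 0.126. Rat m5m was at 7.42, inside the range of the others, so its low raw signal was shared by the probes that set the scale.

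In the 3 normal livers miR-122 was at 7.49 (m79), 7.21 (m65) and 7.42 (m75). At 6 H it was at 7.38 (m62) and 7.46 (m64) after 1/3PH, and at 7.44 (m67), 7.55 (m70B) and 7.38 (m76) after 2/3PH. All 5 arrays at 6 H lay above the lowest normal liver, and their range overlapped that of the normals. At 12 H the levels were 7.48 (m2), 7.42 (m5m) and 7.60 (m6) after 1/3PH. After 2/3PH at 12 H they were 7.55 (m3), 7.58 (m7) and 7.36 (m12B). The highest level of all was m6, and the normal m79 lay within the range of both 12 H groups. At 24 H the levels were 7.50 (m20), 7.46 (m23) and 7.13 (m24) after 1/3PH. After 2/3PH at 24 H they were 7.11 (m26), 7.38 (m29B) and 7.35 (m31B). The lowest arrays of the study, m26 and m24, were both at 24 H, 1 from each operation, and the other arrays of their groups lay with the rest. At 36 H the levels were 7.36 (m45B), 7.58 (m46) and 7.35 (m47) after 1/3PH, and 7.29 (m37B), 7.39 (m39B) and 7.47 (m40) after 2/3PH. Both groups at 36 H overlapped each other and the normals.

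**Figure D1:**
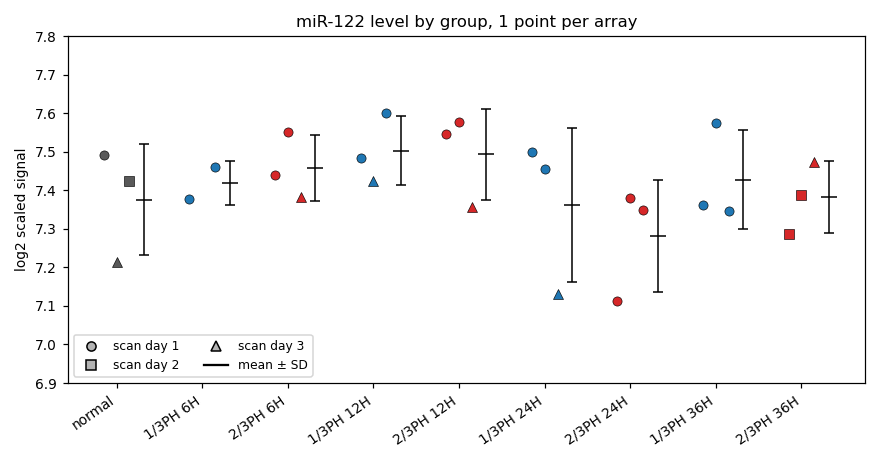
Level of miR-122 as log2 scaled signal (y axis, not starting at 0) in the normal livers (grey), after 1/3PH (blue) and after 2/3PH (red), by group (x axis). Each point is 1 array, its shape gives the scan day, and the bar beside the points is the group's mean and SD; all points lie between 7.11 and 7.60.

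The group means kept within 0.22 log2 units of each other. From the highest to the lowest they were 7.50 ± 0.090 in 1/3PH 12H, 7.49 ± 0.12 in 2/3PH 12H and 7.46 ± 0.086 in 2/3PH 6H (SD, n = 3 each). Next came 7.43 ± 0.13 in 1/3PH 36H (n = 3), 7.42 ± 0.057 in 1/3PH 6H (n = 2), 7.38 ± 0.094 in 2/3PH 36H (n = 3) and 7.38 ± 0.14 in the normal livers (n = 3). The lowest were 7.36 ± 0.20 in 1/3PH 24H and 7.28 ± 0.15 in 2/3PH 24H (n = 3 each). The largest step between neighbours in this order was 0.080, the step down to 2/3PH 24H, and no neighbours differed beyond their SD. Of the 36 pairs of groups 2 did not overlap, 1/3PH 12H and 2/3PH 6H, which both lay above 2/3PH 24H; these pairs were seen in the data and were not tested.

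The first question was whether either operation moved miR-122 away from the normal liver at any time. limma, a linear model with a spread moderated across miRNAs, was fitted to the 144 miRNAs that at least 1 group showed as detected on all its arrays, with Benjamini-Hochberg adjustment over all 144. Across the 9 groups miR-122 did not pass the test (F = 0.704, adjusted p = 0.767), whereas 29.9% of the 144 miRNAs did. After 1/3PH the differences from normal were 0.043 at 6H, 0.13 at 12H, -0.014 at 24H and 0.052 at 36H on the log2 scale (SE 0.13 at 6H and 0.12 at the other times, limma). After 2/3PH they were 0.082 at 6H, 0.12 at 12H, -0.094 at 24H and 0.0063 at 36H (SE 0.12). miR-122 passed in none of these 8 comparisons. The share of the 144 miRNAs that passed was 0% at 6H, 4.17% at 12H, 0.694% at 24H and 0% at 36H after 1/3PH. After 2/3PH it was 0% at 6H, 6.94% at 12H, 18.1% at 24H and 18.8% at 36H. Where limma called 0 miRNAs, the number with an unadjusted p under 0.05 was 8 for 1/3PH 6H, 7 for 1/3PH 36H and 15 for 2/3PH 6H.

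The second question was whether the size of the resection changed miR-122. At equal times, 2/3PH minus 1/3PH came to 0.040 at 6H, -0.0096 at 12H, -0.080 at 24H and -0.045 at 36H, and none passed the test. The share of all miRNAs called in these comparisons was 0% at 6H, 0% at 12H, 2.78% at 24H and 15.3% at 36H, with 3 and 9 miRNAs under an unadjusted 0.05 at 6H and 12H (limma). Averaged over the times, the 2/3PH groups differed from the 1/3PH groups by -0.024, with a 95% interval of -0.15 to 0.10 (3.47% of miRNAs called). The mean of the 1/3PH groups differed from normal by 0.052, with an interval of -0.15 to 0.25 (0% called, 15 under an unadjusted 0.05). The mean of the 2/3PH groups differed from normal by 0.028, with an interval of -0.17 to 0.22 (11.1% called).

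The third question was whether miR-122 moved with time after an operation. From 6H to 36H it changed by 0.0087 after 1/3PH (0% of miRNAs called, 13 under an unadjusted 0.05 by limma) and by -0.076 after 2/3PH (28.5% called), and neither passed. The first of these depended on the scaling: with the 75th percentile taken over all probes it was -1.75 and was called (adjusted p = 0.00655, limma). Of the 1644 probes behind that percentile, only 109 were well above background on all arrays. The difference between these 2 time courses was -0.085, with an interval of -0.45 to 0.28, in a comparison where 4.17% of miRNAs were called. Over all 18 comparisons the lowest adjusted p of miR-122 was 0.510 and 0 had an unadjusted p under 0.05 (limma). For the 12 comparisons with normal or between operations at 1 time, the 95% intervals reached from 0.790-fold to 1.30-fold. These bounds hold for this scaling. With the 75th percentile over all probes the intervals reached from 0.198-fold to 5.05-fold, and 2/3PH 6H minus 1/3PH 6H turned to -1.23 and was called (adjusted p = 0.0495, limma).

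**Figure D2:**
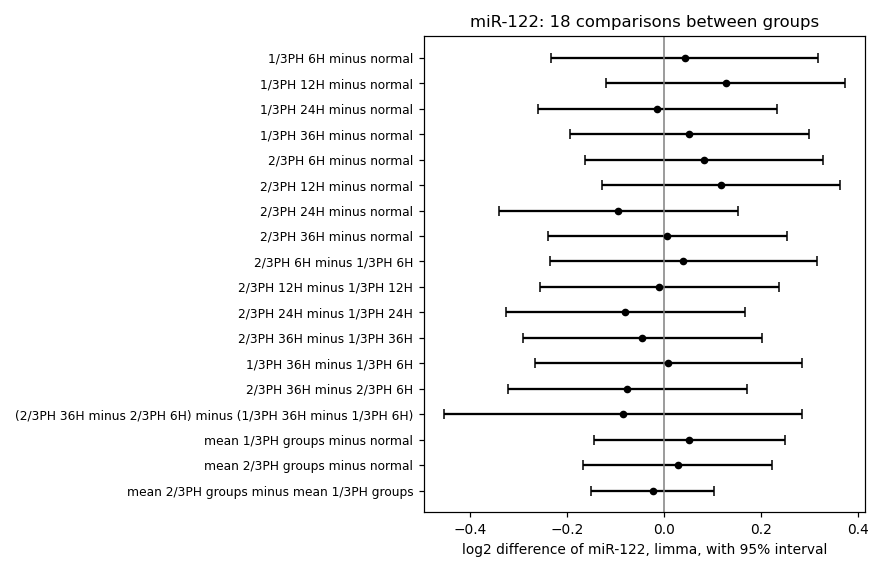
Difference of miR-122 between groups (x axis, log2 units) in each of the 18 comparisons (y axis), as estimates (points) with 95% intervals (bars) from limma. All 18 intervals include 0, and the estimates lie between -0.094 and 0.13.

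The arrays were read on 3 scan days, which did not hold all groups equally. The normal livers were spread over all 3 days, the 8 arrays of 1/3PH 6H, 1/3PH 36H and 2/3PH 24H were all among the 17 of day 1, and 2/3PH 36H was scanned on days 2 and 3. The mean level was 7.45 ± 0.12 on day 1 (n = 17), 7.37 ± 0.072 on day 2 (n = 3) and 7.33 ± 0.13 on day 3 (n = 6), a difference that did not pass a permutation test (p = 0.108, 100000 resamples, Benjamini-Hochberg adjusted 0.180 over 15 such tests). With scan day as a block the 18 differences lay between -0.22 and 0.14, none was called, and the lowest adjusted p was 0.227 (limma). Within day 1, 2/3PH 24H (n = 3) was 0.21 lower than the only normal liver of that day at 7.28 against 7.49, and within day 2, 2/3PH 36H (n = 2) was at 7.34 against 7.42 in 1 normal liver. The other groups of day 1 differed from that normal liver by -0.072 (1/3PH 6H), 0.052 (1/3PH 12H), -0.014 (1/3PH 24H), -0.063 (1/3PH 36H), 0.0054 (2/3PH 6H) and 0.071 (2/3PH 12H). On day 3, single arrays of 2/3PH 36H, 1/3PH 12H, 2/3PH 6H and 2/3PH 12H were at 7.47, 7.42, 7.38 and 7.36 and that of 1/3PH 24H at 7.13, against 7.21 in the normal m65. Of the 5 groups that could be set against a normal liver on 2 days, 4 had the same sign on both and 1, 2/3PH 36H, did not (-0.087 on day 2 and 0.26 on day 3). Each of these values rests on 1 normal liver and none was tested.

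The spread of miR-122 between arrays of a group, 1 array per rat, was low among the miRNAs measured. Its SD between arrays of the same group was 0.128 log2 units, rank 13 from the lowest of 144, where the median miRNA had 0.284. Among the 82 miRNAs detected on every array its rank was also 13, and the median was 0.206. The part of signal level in this rank was not tested. The miRNAs with lower values included let-7f (0.0689), let-7a (0.0797) and miR-192 (0.0823), of the let-7 family found in most tissues and of a cluster enriched in liver and gut. The value depended on the scaling. Without any scaling the SD of miR-122 was 0.458 and its rank 53, where the median miRNA had 0.496. With the 75th percentile over all probes they were 0.545 and 33, with a median of 0.590. With normexp, a background correction described below, they were 0.243 and 36. Scaled on the total of all other miRNAs they were 0.121 and 10, and with scan day as a block 0.102 and 10. The low spread was thus kept under some settings and not under others. miR-122*, from the same hairpin, had 0.243 and rank 59 with the chosen scaling. The order of the 2 arms depended on the setting too. Without scaling miR-122* had the lower SD (rank 10 against 53), as with normexp (rank 24 against 36). With scan day as a block it had 0.151 and rank 35, still above miR-122. Its SD was also the higher with the 75th percentile over all probes and on the total of all other miRNAs.

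**Figure D3:**
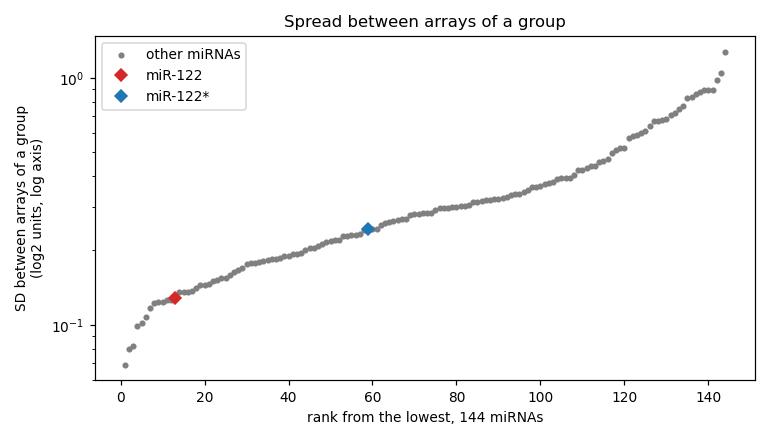
SD between arrays of the same group (y axis, log2 units on a log axis) for 144 miRNAs ordered from the lowest (x axis, rank). miR-122 (red) lies at rank 13 with 0.128 and miR-122* (blue) at rank 59 with 0.243.

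As a share of the array's miRNA signal, miR-122 took up 47.4% (m26, 2/3PH 24H) to 59.6% (m7, 2/3PH 12H), with a median of 55.1% over the 26 arrays. These are shares of fluorescence, in which probes with different sequences do not give the same signal per molecule, and not shares of molecules. The share was 54.2% ± 2.33 in the normal livers (SD, n = 3). After 1/3PH it was 54.97% ± 0.196 at 6H (n = 2), 57.8% ± 0.280 at 12H, 54.4% ± 2.13 at 24H and 54.3% ± 1.30 at 36H (n = 3 each). After 2/3PH it was 56.3% ± 1.35 at 6H, 58.0% ± 1.56 at 12H, 51.1% ± 3.26 at 24H and 52.2% ± 3.19 at 36H (n = 3 each). The highest means were those of the 12H groups of both operations and the lowest those of 2/3PH 24H and 36H, 6.91 percentage points apart at the extremes. All 6 arrays at 12H lay above the normal range of 51.5% to 55.8%. The arrays of 2/3PH 24H and 36H overlapped that range.

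Unlike the scaled level (permutation p = 0.535), the share differed between the 9 groups beyond the spread between arrays of a group, with F = 3.71 and p = 0.0128 (permutation test, 100000 resamples, Benjamini-Hochberg adjusted 0.0320 over 15 tests). Level and share divide the signal by different quantities. Scaled on the total of all other miRNAs, miR-122 was not called across the 9 groups by limma, a different test with its adjustment over 144 miRNAs. Among the 16 arrays of day 1 in groups with 2 or more arrays there, which are part of the same data, the share differed too (F = 4.71, permutation p = 0.00496, adjusted 0.0149). Slide and group overlapped there: 1/3PH 36H and 2/3PH 24H were the only groups of slide 2, and the day 1 arrays of both 6H groups were on slide 4. They could not be told apart, and the share was not tested by slide. Between scan days it did not pass (permutation p = 0.343). The call over the 9 groups was lost with normexp, a model-based correction of each spot for its local background, run with an offset of 50 units added to every spot. The mean share over arrays then fell from 54.8% to 42.0% and the groups gave F = 0.759 with permutation p = 0.659. Such an offset raises dim probes by a larger factor than bright ones, and the correction and the offset were not tested apart. After 2/3PH the share of miR-21 was 7.01% ± 0.0856 at 6H, 5.63% ± 1.54 at 12H, 11.9% ± 0.663 at 24H and 11.8% ± 2.46 at 36H, against 7.91% ± 2.12 in normal livers (n = 3 each). Shares of 1 total are tied to each other, so the share of miR-122 was also taken of the signal without miR-21, a choice made after the data were seen. The group means then lay between 57.99% in 2/3PH 24H and 61.9% in 1/3PH 12H, and the groups no longer passed (F = 1.64, permutation p = 0.181, adjusted 0.247).

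**Figure D4:**
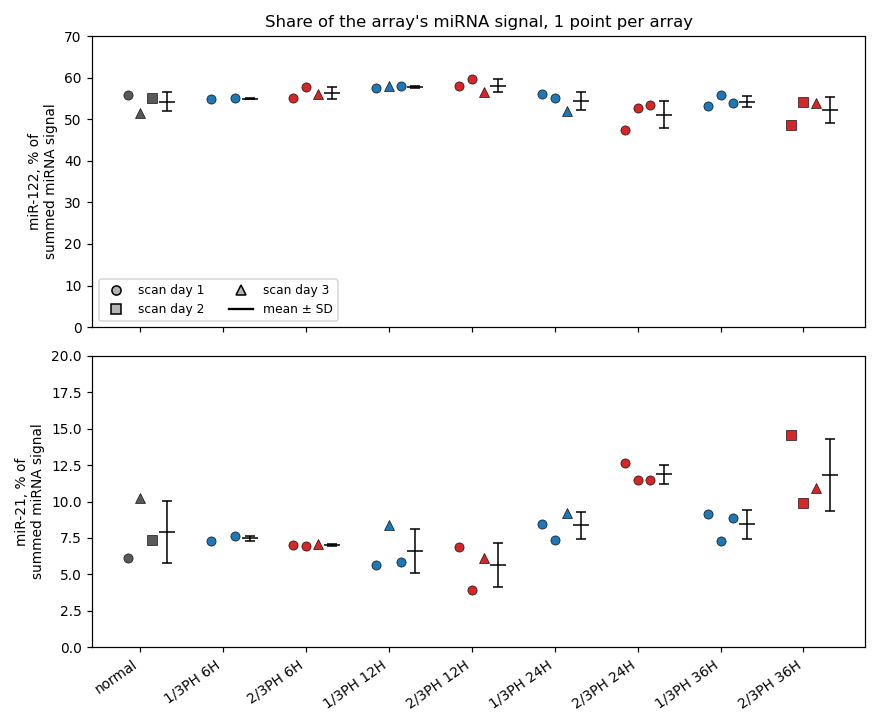
Share of the summed miRNA signal (y axes, percent, both starting at 0) taken by miR-122 (upper panel) and by miR-21 (lower panel) in each group (x axis); points are arrays, shapes scan days, and bars the mean and SD. The 6 arrays at 12H have shares of miR-122 from 56.5% to 59.6%, and the arrays of 2/3PH 24H and 36H have the highest shares of miR-21, 9.91% to 14.6%, with 1 normal liver at 10.3% among them.

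Across arrays the signal of miR-122 rose with the summed signal of all other miRNAs, as log2 values (Pearson's r = 0.936, permutation p = 3e-05; Spearman's rho = 0.638, permutation p = 0.00055; adjusted 0.00024 and 0.0022 over 8 values). The slope was 0.852 ± 0.0655 (SE, n = 26). Without m5m and m75, the arrays farthest from the median, r was 0.584 (permutation p = 0.00249) and the slope 0.508 ± 0.151 (n = 24). Among the 17 arrays of day 1, r was 0.498 (permutation p = 0.0404, adjusted 0.0556) with a slope of 0.403 ± 0.181. Among the 6 arrays of day 3, r was 0.988 (exact permutation p = 0.0417) and rho 0.60 (exact permutation p = 0.242), and without m5m the slope there fell from 0.874 to 0.470. A slope of 1 would mean that miR-122 and the rest changed by the same factor from array to array, and the height of r rested on m5m.

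The brighter of the 2 probes averaged 8086 to 39148 units and the dimmer 2220 to 13284. The 10 spots of a probe on 1 array had a coefficient of variation of 2.23% to 9.51% for the brighter and 1.26% to 9.88% for the dimmer. On log2 axes the brighter probe rose by 0.866 ± 0.0328 (SE) per unit of the dimmer over the 26 arrays, by 0.796 ± 0.0760 without m5m, and by 0.775 ± 0.0976 on day 1 alone. The brighter probe thus spanned a narrower range than the dimmer, with both at 5.37% of saturation or less. Their ratio was 2.75 to 3.64 and differed between the 6 slides (F = 6.26, permutation p = 0.00147, adjusted 0.00735), with means of 3.097 on slide 1, 2.93 on slide 2, 2.84 on slide 3, 3.18 on slide 4 and 3.31 on slide 5. It also differed between the 9 groups (permutation p = 0.0185, adjusted 0.0396) and among the groups of day 1 (permutation p = 0.00272, adjusted 0.0102). Slide and group overlapped in part: slide 2 held the 3 arrays each of 2/3PH 24H and 1/3PH 36H and slide 3 a normal liver and 2 arrays of 2/3PH 36H, so slide and group could not be told apart there. By either probe alone, miR-122 was called in 0 of 18 comparisons, with lowest adjusted p values of 0.414 for the brighter and 0.673 for the dimmer (limma).

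miR-122*, the strand of the hairpin that is mostly discarded, was detected on 26 of 26 arrays with 2 probes and a signal of 99.6 to 365 (median 258). Its scaled level was 0.25 ± 0.22 in the normal livers, and group means ranged from -0.037 ± 0.27 in 2/3PH 24H to 0.36 ± 0.32 in 1/3PH 12H (SD, n = 3 each). It passed in none of the 18 comparisons (differences from -0.29 to 0.19, lowest adjusted p = 0.409, limma) and not across the 9 groups (F = 0.776, adjusted p = 0.736). With the 75th percentile over all probes its differences ran from -1.75 to 1.69 and 1 was called (adjusted p = 0.00666, limma). The groups with the highest and the lowest mean were those of miR-122 as well, but over the 26 arrays the scaled levels of the arms had r = 0.068, as a description of values that share 1 scaling. Within a scan day r was higher, at 0.621 on day 1 (17 arrays) and 0.81 on day 3 (6 arrays).

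The star arm followed the scan day. The log2 ratio of the star signal to the miR-122 signal was -7.39 ± 0.11 on day 1 (SD, n = 17, -7.60 to -7.22), -7.32 ± 0.14 on day 2 (n = 3, -7.44 to -7.16) and -6.83 ± 0.091 on day 3 (n = 6, -6.94 to -6.69). All 6 arrays of day 3, from 6 different groups, lay above all 20 others. The difference between days gave F = 60.2 with permutation p = 1e-05, the smallest that 100000 resamples can give (adjusted 0.00015), whereas the groups did not pass (permutation p = 0.944). Day 3 was also the only day of slides 5 and 6, so day and slide cannot be told apart. The absolute ratio compares probes of different sequence and says nothing of how many molecules of each arm were present.

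**Figure D5:**
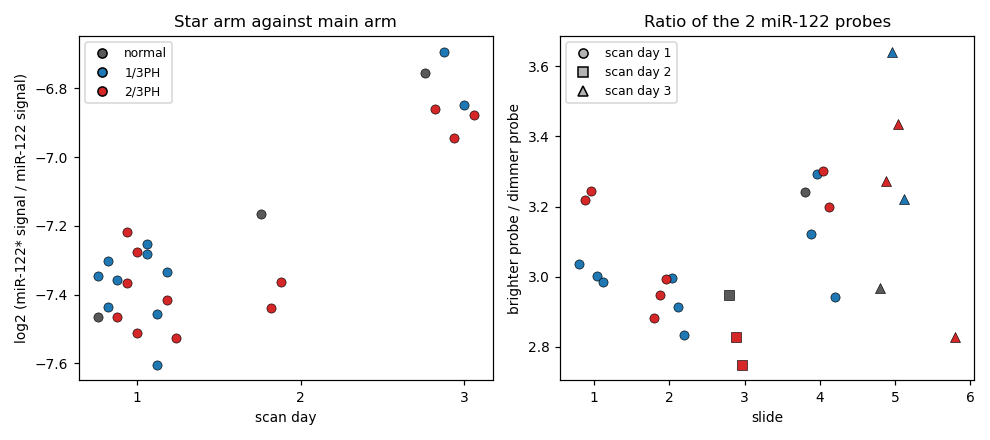
Left, log2 ratio of the miR-122* signal to the miR-122 signal (y axis) by scan day (x axis); right, ratio of the brighter to the dimmer miR-122 probe (y axis) by slide (x axis). Points are arrays, coloured by operation, with shapes for scan days on the right; the 6 arrays of day 3 lie at -6.94 to -6.69, above all others.

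Over the 26 arrays, the 81 other miRNAs detected on every array had a median correlation of 0.038 with miR-122, and 46 of them lay above 0. These correlations describe values from the same arrays and 1 shared scaling factor per array. The highest were let-7c (r = 0.714), let-7a (0.673), let-7b (0.638), miR-3588 (0.610) and let-7d (0.582). The 4 let-7 members share a seed and are abundant in differentiated tissue. Of these 5 names, 4 were also among the 5 highest when each array was taken as its deviation from its group mean, with miR-324-3p in place of let-7d. let-7a went from 3.23 ± 0.082 in normal livers to 3.47 ± 0.096 in 1/3PH 12H and 3.28 ± 0.0043 in 2/3PH 24H (log2, SD, n = 3 each). The lowest were miR-29b (r = -0.564), which represses collagen and other matrix genes, miR-21 (-0.527) and miR-199a-3p (-0.494), known from mesenchymal cells. miR-21 was at 4.57 ± 0.29 in normal livers, 4.09 ± 0.41 in 2/3PH 12H and 5.17 ± 0.038 in 2/3PH 24H, and miR-29b at 0.29 ± 0.47, -0.71 ± 0.32 and 0.34 ± 0.34 in the same groups. The negative values depended on the scaling: without it r was 0.675 for miR-29b, 0.598 for miR-21 and 0.736 for miR-199a-3p. Scaled on the total of all other miRNAs they stayed negative, at -0.797, -0.787 and -0.247. The highest values also moved over the 3 other scalings, for example to 0.834 to 0.990 for let-7c and 0.474 to 0.752 for miR-3588.

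The liver's cell types were read from marker lists. miR-122 is 1 of 9 miRNAs listed as enriched in hepatocytes, of which 8 were on the array, 7 were tested and miR-455 was detected on no array. Together they took 53.3% to 64.7% of the signal, most of it from miR-122 itself, which alone took 47.4% to 59.6%. The shares of the lists are shares of signal and not of cells. Leukocyte miRNAs took 0.221% to 0.396%, stellate and endothelial ones 0.937% to 1.73%, biliary and other epithelial ones 0.0376% to 0.202%, and a red cell list 0.0666% to 0.517%. The 7 miRNAs of muscle, brain and pancreatic islets, such as miR-1, miR-124 and miR-375, were detected on 0 arrays. Of the 5 biliary and epithelial miRNAs 3 were tested, and miR-200c and miR-141 were detected on no array. Across the 9 groups miR-200b and miR-429 passed (adjusted p = 0.00480 and 0.0121, limma) and miR-200a did not (0.165). Called higher than normal were miR-200b and miR-429 in 1/3PH 12H (4.17% of all miRNAs called) and 2/3PH 24H (18.1%), and all 3 in 2/3PH 36H (18.8%). Of these only miR-200b was detected on every array. miR-429 and miR-200a were kept because at least 1 group had them on all its arrays, and low values were floored, so their calls are not independent of that filter. In the leukocyte list, with 4 tested, miR-150 was called lower in 2/3PH 24H and 36H and miR-142-3p in 2/3PH 24H, and the part of these cells in the values of miR-122 was not tested. miR-150 was likewise not detected on every array. Whether the epithelial and leukocyte calls held under other settings or without single arrays was not examined.

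Other miRNAs of the hepatocyte list were called where miR-122 was not. Across the 9 groups 4 of the 7 passed: miR-192, miR-101a, miR-22 and miR-378 (adjusted p = 0.00707, 0.00650, 0.0205 and 0.00295, limma), against 29.9% of all miRNAs, and miR-122, miR-194 and miR-30a did not (0.767, 0.277 and 0.116). Against normal livers, 2 of 7 were called at 12H after 1/3PH, where 4.17% of all 144 miRNAs were called (median of the list -0.29, of all miRNAs 0.099). After 2/3PH it was 3 of 7 at 12H against 6.94% of all (medians -0.34 and 0.040), 3 of 7 at 24H against 18.1% (-0.29 and 0.047) and 2 of 7 at 36H against 18.8% (-0.12 and 0.061). All 10 calls were lower than normal, and the count at 36H was near the share of all miRNAs. miR-192, from a cluster enriched in liver and gut, differed from normal by -0.41 log2 units in 1/3PH 12H and by -0.34 in 2/3PH 12H (adjusted p = 0.0117 and 0.0274, limma). miR-378, which lies in the gene of the metabolic coactivator PGC-1β, had -0.90 in 1/3PH 12H and -0.88 in 2/3PH 36H (adjusted p = 0.0334 and 0.0114, limma). Each of the 10 calls was lost without at least 1 of the 26 arrays, and each was lost under 4 to 10 of the 13 or 14 other settings. With normexp and with all spots all 10 were lost, without scaling 9, with the 75th percentile over all probes 8, and with scan day as a block 4. That of miR-192 in 1/3PH 12H was lost without m65 (-0.34, adjusted p = 0.0725, limma) and without m75 (-0.42, adjusted p = 0.0582), and that of miR-378 in 2/3PH 36H without m37B (-0.82, adjusted p = 0.0536), where normexp also gave 0.0055. Whether the change of any of them differed from that of miR-122 was not tested.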

How the data were processed

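RNA of 26 rat livers was hybridised by the authors to 1-colour Agilent miRNA arrays. Spot intensity values, background-corrected and flagged by Feature Extraction 10.7.3.1 (1 scan pass, annotation build rn4 per the file headers), were deposited for each array, together with a table of log2 values whose normalization is not given in the sources used here. The log2 values deposited by the authors served as an alternative. The study left 1 array of a 1/3PH group out for poor quality. Spots marked as outliers were left out, the other spots of a probe were averaged, probes were summed per miRNA, the 75th percentile of an array's 109 probes well above background on all arrays was set to 1, values were floored at the lowest signal well above background, and log2 was taken. miRNAs that were not detected counted as 0 in the summed signal. limma 3.58.1 (R 4.3.3) fitted 9 groups at once to 144 miRNAs, with Benjamini-Hochberg adjustment and a threshold of 0.05, and was tested on simulated data. Permutation tests used 100000 resamples (scipy 1.17.1, numpy 2.4.6), two-sided, and F ratios by size. p-values measure the spread between arrays of a group, 1 array per rat, in which differences between rats, slides and scan days are mixed. The number of arrays limits the precision. Named miRNAs were miR-122, miR-122*, any with the same seed, the 5 most and 3 least correlated, and list members with an adjusted p under 0.05. The member and the lists were chosen with earlier results of these data known. Sequences and neighbouring genes were from RefSeq GRCr8. Scaling, background, spots, probes, filters, scan day, slide and single arrays were varied.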

Additional observations from a re-analysis of the deposited data

How the results depend on the processing

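With 2 or 3 arrays per group and the chosen scaling, the SE of the 18 differences of miR-122 ranged from 0.061 log2 units between the 2 means to 0.18 for the difference of the time courses (limma). No limit of detection was computed, and signs of differences this close to 0 carry little. Across 13 settings per comparison (234 values), 164 kept the sign, 14 were 0, all with the deposited log2 values, and 56 changed sign. The 164 include the settings that changed only the filter, which left each difference as it was and could not change a sign. The total signal per miRNA given by the scanner software had the same range of differences as the values reported, -0.094 to 0.13. Of the 234, 22 lay outside the 95% interval of the value reported, 12 of them with the 75th percentile over all probes. Of the 468 values with 1 array left out, 449 kept the sign and 19 changed it, and none was called. A difference stays the same when the array left out is in none of the groups compared. Many of the 449 could therefore not change, and the count does not measure stability. No comparison was called except with the 75th percentile over all probes, where 2/3PH 6H minus 1/3PH 6H was -1.23 (adjusted p = 0.0495) and 1/3PH 36H minus 1/3PH 6H was -1.75 (adjusted p = 0.00655); the cause was not tested. The other values of opposite sign with that percentile were -0.93, -0.52, -0.0032, -0.20 and -0.081 for 1/3PH 12H, 1/3PH 36H, 2/3PH 6H, 2/3PH 12H and 2/3PH 36H minus normal, 0.72 and 0.44 for 2/3PH minus 1/3PH at 12H and 36H, 1.67 for the difference of the time courses, and -0.067 and -0.21 for the means of 1/3PH and 2/3PH minus normal. Of the same sign but outside the interval were 1.23 (adjusted p = 0.0612) and -0.56 for 1/3PH 6H and 2/3PH 24H minus normal and -0.51 between operations at 24H with that percentile, and with all spots 0.35 between operations at 6H and 0.42 for 1/3PH 36H minus 6H. Without scaling they were -0.62, -0.092, -0.15 and -0.15 for 1/3PH 12H, 2/3PH 6H, 2/3PH 12H and 2/3PH 36H minus normal, -0.14 and 0.48 for 2/3PH minus 1/3PH at 6H and 12H, -0.021 for 1/3PH 36H minus 6H, and -0.14 and -0.14 for the 2 means minus normal. With normexp they were -0.18, -0.087 and -0.23 for 1/3PH 12H, 2/3PH 6H and 2/3PH 36H minus normal, -0.12 and 0.23 between operations at 6H and 12H, -0.017 for 1/3PH 36H minus 6H, and -0.041 and -0.097 for the 2 means minus normal. With scan day as a block they were -0.080 and -0.071 for 1/3PH 6H and 36H minus normal, 0.14 between operations at 36H, 0.041 for 2/3PH 36H minus 6H, 0.033 for the difference of the time courses, -0.039 and -0.017 for the 2 means minus normal, and 0.021 between the means. With all spots they were -0.37 and -0.017 for 1/3PH 6H and 2/3PH 6H minus normal, 0.035 for 2/3PH 36H minus 6H, -0.070 for the mean of 1/3PH minus normal and 0.071 between the means. With the deposited log2 values they were -0.42 for 1/3PH 12H minus normal, 0.42 between operations at 12H, -0.11 for the mean of 1/3PH minus normal and 0.11 between the means, which rest on m5m alone, and 0 elsewhere. Scaled on the total of all other miRNAs they were 0.011 and -0.12 for 1/3PH 24H and 2/3PH 36H minus normal, 0.013 between operations at 12H and -0.042 for 1/3PH 36H minus 6H. With the brighter probe alone they were -0.025 for 2/3PH 36H minus normal, 0.0025 between operations at 12H and -0.025 for 1/3PH 36H minus 6H, with the dimmer alone -0.012 for 1/3PH 6H minus normal and 0.087 for 2/3PH 36H minus 6H, and with slide as a random block -0.018 for 2/3PH 36H minus normal. Across the 9 groups the adjusted p was 0.0514 with the 75th percentile over all probes, 0.0695 with the total of all other miRNAs and 0.390 to 0.977 with the other settings. Quantile normalization gave miR-122 1 value on all arrays, so no comparison could be made with it.

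With 1 array left out, the ranges were -0.039 to 0.10, 0.046 to 0.18, -0.096 to 0.10 and -0.030 to 0.11 for 1/3PH minus normal at 6H, 12H, 24H and 36H. For 2/3PH minus normal they were 0.0010 to 0.14, 0.036 to 0.19, -0.18 to -0.011 and -0.075 to 0.064, and between operations -0.0073 to 0.080, -0.052 to 0.058, -0.20 to 0.0037 and -0.091 to 0.029. They were -0.065 to 0.049 for 1/3PH 36H minus 6H, -0.12 to -0.028 for 2/3PH 36H minus 6H, -0.13 to -0.011 for the difference of the time courses, -0.030 to 0.11 and -0.053 to 0.085 for the means of 1/3PH and 2/3PH minus normal, and -0.053 to -0.0029 between the means.

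The SD between arrays of a group was 0.458 without scaling, 0.545 with the 75th percentile over all probes, 0 with quantile normalization, 0.243 with normexp and 0.102 with scan day as a block, against 0.128. The mean share was 42.0% with normexp, 59.8% without miR-21 in the total, and 122.02% of the signal of all other miRNAs; the F of the share over groups was 0.759 with normexp and 1.64 without miR-21, and with 1 array left out it was 3.101 to 4.07 with each p under 0.05. The correlation of miR-122 with the signal of all others was 0.645 without m5m and 0.933 to 0.953 without any other array. With the 75th percentile over all probes, r was 0.733 for miR-29b, 0.785 for miR-21 and 0.864 for miR-199a-3p, and without scaling 0.675, 0.598 and 0.736. On the total of all other miRNAs it was -0.797, -0.787 and -0.247. miR-378 in 2/3PH 36H minus normal was 0.0055 with normexp. No paired analysis was possible because the groups share no animals and the replicate numbers do not pair the rats.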
